A study of Mus musculus with 6 samples.

Results

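The genes described here were the major histocompatibility complex (MHC) class II genes H2-Aa, H2-Ab1 and H2-Eb1, the genes that load class II molecules (H2-DMa, H2-DMb1 and Cd74), the class II coactivator Ciita, and 3 genes of dendritic cells (Cd209a, Flt3 and Clec9a). They were chosen by name, and every non-control probe whose annotated symbol was one of these 10 genes was taken, which gave 20 of the 56605 probes on the array. Of these, 11 probes of 8 genes were detected, that is, flagged well above background by the scanner software, in each of the 3 hearts of one group or of both, and were tested with the 22998 probes that met this condition. Flt3 and Clec9a had no probe that did.

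RNA was measured in the hearts of male C57BL/6J mice that lacked the kinase gene Clk4 in cardiomyocytes (Clk4-cKO), and the question of the study was how a phosphorylation mimic of nexilin (NEXN), an actin-binding protein of the cardiac Z-disc, acts in such hearts. The deletion came from Clk4 fl/fl mice crossed with α-MHC-MerCreMer mice, whose Cre acts in cardiomyocytes after tamoxifen. Control hearts received AAV9 carrying wild-type NEXN (NEXN-WT, 3 mice), and treated hearts received AAV9 carrying NEXN-S437E, in which glutamate replaces the serine that CLK4 phosphorylates (3 mice). RNA of each heart was labelled with 1 dye and hybridised to 1 Agilent mouse array. Both groups therefore carried the Clk4 deletion and a virus that expressed NEXN with GFP from a CMV promoter, which is not confined to cardiomyocytes. Hearts with intact Clk4 and hearts without virus were not analysed here. The Clk4 probe well above background on all 6 arrays differed by 0.02 (SE 0.19) on the log2 scale between the groups, both of which carry the deletion. The 2 Nexn probes differed by -0.10 and 0.02, and as both groups received a NEXN vector these values do not tell the constructs apart.

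Class II molecules are pairs of an α and a β chain that show peptides from engulfed protein to CD4+ T cells. In the mouse they come as I-A (H2-Aa with H2-Ab1) and I-E (H2-Eb1 with H2-Ea), and C57BL/6 mice lack a functional H2-Ea. The invariant chain, encoded by Cd74, holds the groove until the H2-DM heterodimer exchanges its remnant for a peptide, and CIITA switches these genes on together through the X and Y boxes of their promoters, which the RFX and NF-Y complexes bind. Dendritic cells, macrophages and B cells carry class II, and in the heart most of it sits on resident and recruited myeloid cells rather than on cardiomyocytes. Cd209a marks monocyte-derived and conventional dendritic cells, Flt3 is the receptor through which Flt3 ligand supports dendritic cell development, and Clec9a is the receptor for dead cells on cross-presenting dendritic cells.

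Promoters of class II genes are shown because their genes had lower levels together in one group and share a paired sequence. RefSeq promoter windows on GRCm38.p6, from 250 bases before to 50 bases after the transcription start, were at hand for 7 of the members in 8 windows. The letters GNAAC, the core of the X box, were searched on both strands where GATTGG, the core of the Y box, followed after 15 to 35 bases. These letters were chosen after the sequences had been seen. The pair was found in the windows of H2-DMb1, H2-Aa and H2-Eb1 and in 396 of 32851 windows in all (1.21%), whereas GATTGG alone was in 16.1% of them. The 2 H2-DMa windows and those of Cd209a, Flt3 and Clec9a held no such pair. Each sequence is written 5′ to 3′ on the strand of its gene, with the letters of the pair in capitals.
H2-DMb1 promoter, chr17:34153077-34153149, plus strand: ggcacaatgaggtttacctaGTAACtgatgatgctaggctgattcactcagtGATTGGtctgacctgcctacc
H2-Aa promoter, chr17:34287852-34287924, minus strand: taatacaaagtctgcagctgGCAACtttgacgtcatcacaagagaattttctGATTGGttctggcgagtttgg
H2-Eb1 promoter, chr17:34305756-34305827, plus strand: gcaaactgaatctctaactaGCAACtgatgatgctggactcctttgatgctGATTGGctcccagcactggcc
The first capital letter stood 94, 81 and 91 bases before the transcription start, and 27, 27 and 26 bases lay between the parts of the pair. A match of letters does not show that a factor bound there.

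The probes that carried the results are shown next, with their positions on mm9. H2-Ab1 was measured by 4 probes, of which A_55_P1962747 (chr17:34406296-34406355) and A_55_P2146560 (chr17:34406305-34406363) lie over one another for 51 bases and differ there in 1 base, T51C, counted from the 5′ end of A_55_P1962747. A stretch of each is shown because the neighbours gave different overlap between the groups, with the differing base in capitals.
H2-Ab1 A_55_P1962747: agattacaaataaacgagacTcagactctg
H2-Ab1 A_55_P2146560: acaaataaacgagacCcagactctggttat
The probe H2-Ab1 A_55_P2741874 (chr17:34404357-34404416) lay elsewhere in the gene and is given whole, and the Cd209a probe that passed the adjusted p (chr8:3743481-3743540, minus strand) is given by its first 30 bases.
H2-Ab1 A_55_P2741874: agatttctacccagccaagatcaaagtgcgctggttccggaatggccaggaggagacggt
Cd209a A_55_P2018061: ggacatggtgagcctcaatgttatagacct

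Between 41.9% and 47.8% of the spots on an array were well above background, no spot was saturated, and all arrays were read on 1 slide in 1 scan. Slide row 1 held NEXN-WT replicates 1 to 3 with replicate 1 of NEXN-S437E, and slide row 2 the other 2 NEXN-S437E arrays. NEXN-WT replicate 1 stood apart: over the tested probes its mean absolute log2 difference from each other array was 0.373 to 0.548, against 0.190 to 0.321 between any of the other 5. Values without it are given beside several of the results. Levels are log2 signals relative to the 75th percentile of the array's detected probes, so that 0 is that percentile. They compare 1 probe between arrays, not 1 gene with another.

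The class II chain genes had lower mean levels in NEXN-S437E hearts than in NEXN-WT hearts, by between 1.52-fold and 1.66-fold for each of their 6 probes, and the loading genes Cd74, H2-DMb1 and H2-DMa were 1.55-fold, 1.82-fold and 1.34-fold lower. None of these 9 probes passed the threshold of a Benjamini-Hochberg adjusted p of 0.05 in limma (adjusted p 0.152 to 0.326). Ciita passed it, and so did the fit of Cd209a, which was detected in NEXN-WT hearts alone and so has only a bound. In whole hearts, fewer class II positive cells and less RNA per cell cannot be told apart.

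The level of H2-Aa, the I-A α chain, was -1.64, -2.08 and -1.57 in NEXN-WT replicates 1 to 3 and -2.44, -2.21 and -2.44 in the NEXN-S437E replicates. The lowest NEXN-WT heart stayed above the highest NEXN-S437E heart by 0.129, less than the SD of the NEXN-WT group (0.274). The difference was -0.60 (SE 0.17, 95% interval -1.01 to -0.19, limma adjusted p 0.194).

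H2-Ab1, the I-A β chain, gave the same picture on probes from different stretches of the gene. On A_55_P1962747 its level was 2.69, 2.20 and 2.40 in NEXN-WT hearts and 1.89, 1.92 and 1.68 in NEXN-S437E hearts. All NEXN-WT hearts were above all NEXN-S437E hearts, with the highest value in NEXN-WT replicate 1, and the difference was -0.60 (SE 0.17, limma adjusted p 0.184). On A_52_P683598 (chr17:34406059-34406118) it was 1.72, 1.16 and 1.49 against 0.78, 0.75 and 0.64, a difference of -0.73 (SE 0.17, limma adjusted p 0.152). On A_55_P2741874 it was -0.88, -1.27 and -0.77 against -1.58, -1.67 and -1.71, a difference of -0.68 (SE 0.16, limma adjusted p 0.156). On both of these probes the groups did not overlap and the NEXN-S437E hearts lay closer together than the NEXN-WT hearts, with SDs of 0.071 against 0.279 and of 0.068 against 0.263.

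The 1-base variant A_55_P2146560 was the exception among the H2-Ab1 probes. Its level was 2.12, 1.42 and 1.75 in NEXN-WT hearts and 0.82, 1.47 and 1.19 in NEXN-S437E hearts, so that NEXN-S437E replicate 2 lay above NEXN-WT replicate 2. The difference, -0.61, was the size found on its near-identical neighbour, with a wider error (SE 0.24, limma adjusted p 0.276).

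H2-Eb1, the I-E β chain, had levels of 3.23, 2.49 and 2.66 in NEXN-WT hearts and 2.12, 2.22 and 1.99 in NEXN-S437E hearts. The groups did not overlap, and NEXN-WT replicate 1 was the highest of all. The difference was -0.69 (SE 0.21, limma adjusted p 0.206), and it was -0.47 without that heart. H2-Ea-ps, the symbol under which the array lists the I-E α chain, was well above background on no array.

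Cd74, the invariant chain, was at 1.96, 1.38 and 1.49 in NEXN-WT hearts and at 0.92, 1.11 and 0.89 in NEXN-S437E hearts. The groups lay 0.27 apart at their nearest, and the highest heart was again NEXN-WT replicate 1. The difference was -0.63 (SE 0.18, limma adjusted p 0.191), and -0.46 without that heart.

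Of the H2-DM chains, which edit the peptides on class II, H2-DMb1 was at -1.36, -2.17 and -1.66 in NEXN-WT hearts and at -2.98, -2.26 and -2.54 in NEXN-S437E hearts. The groups were separated by only 0.084, against SDs of 0.410 and 0.362, and the difference was -0.86 (SE 0.26, limma adjusted p 0.206). H2-DMa was at -3.55, -3.68 and -3.16 against -3.83, -3.68 and -4.14. Here NEXN-WT replicate 2 and NEXN-S437E replicate 2 were 0.006 apart, the interval of the difference (-0.87 to 0.03) included 0. The H2-DMa difference, -0.42, was -0.27 without NEXN-WT replicate 3 and -0.25 with normexp background correction, and the groups overlapped in the log2 values normalized by the authors. A second H2-DMb1 probe, A_55_P1972989, was well above background on no array. It matched the H2-DMb1 promoter window in 58 of its 60 bases, beginning 27 bases before the transcription start.

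**Figure D1:**
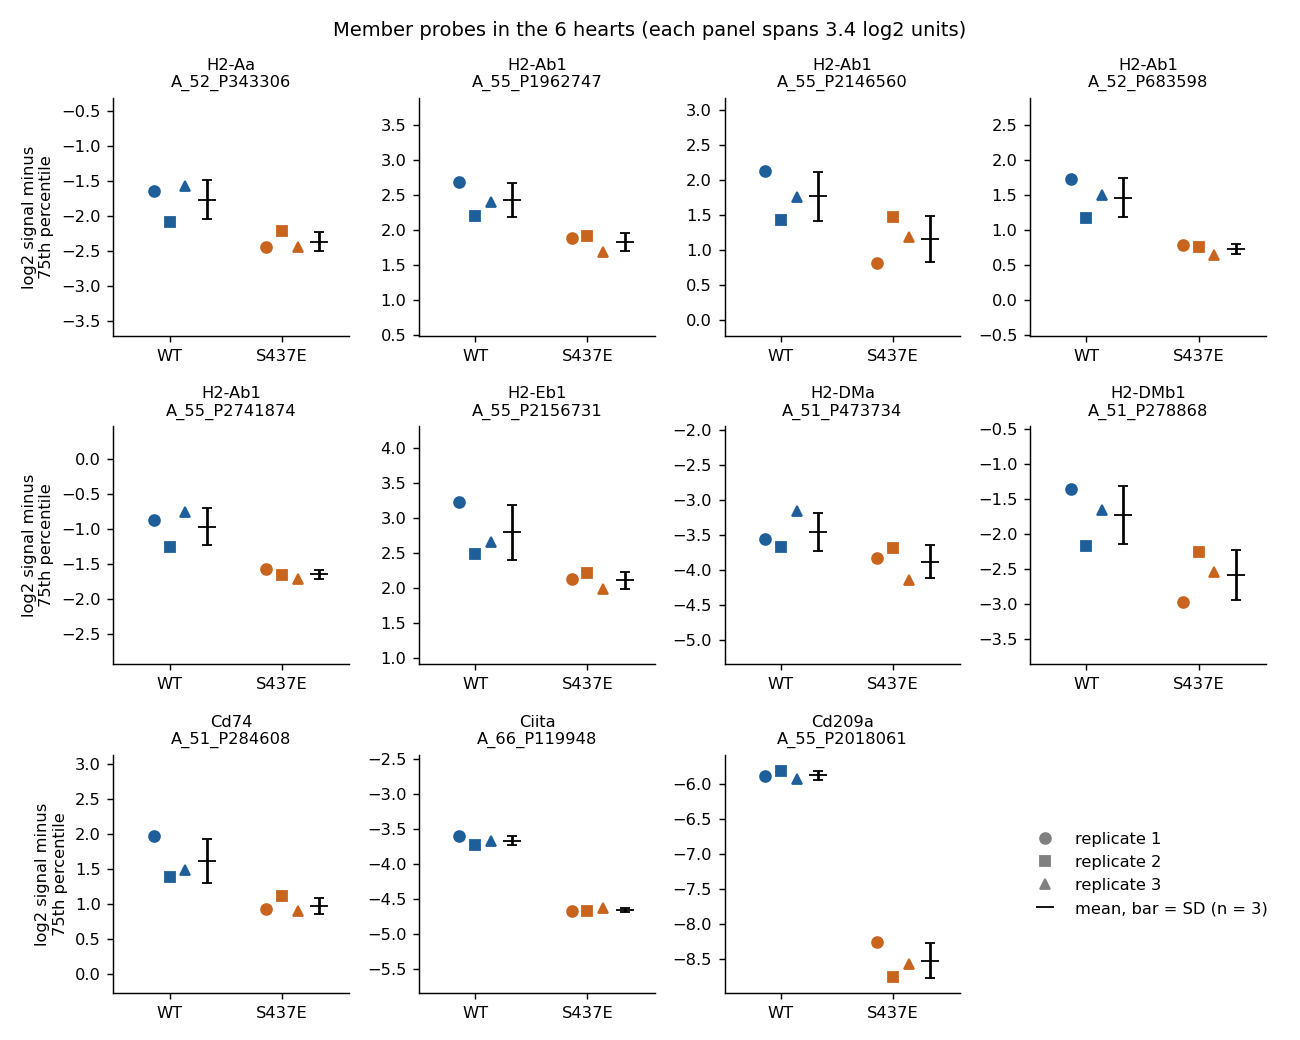
Level of each tested member probe (log2 signal minus the array's 75th percentile, y axis, the same span in each panel) in NEXN-WT and NEXN-S437E hearts, with replicates as shapes and the group mean with its SD (n = 3) as a black bar. Ciita hearts lay close together in both groups and Cd209a hearts in NEXN-WT (its NEXN-S437E readings are below background), whereas the NEXN-WT hearts of the class II chains were spread over a wider range with replicate 1 often highest.

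Ciita, the coactivator of the class II genes, was lower in NEXN-S437E hearts. Its probe A_66_P119948 (chr16:10526458-10526517, plus strand) gave -3.61, -3.73 and -3.67 in NEXN-WT hearts and -4.68, -4.68 and -4.64 in NEXN-S437E hearts. The groups lay 0.907 apart, with SDs of 0.059 and 0.025. Ciita fell by 0.99 on the log2 scale, or 1.99-fold (SE 0.12, 95% interval -1.27 to -0.72, limma adjusted p 0.0447), just short of the 2-fold change that the study asked for.

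The Ciita call was a narrow one. It held without NEXN-WT replicate 1 (-0.96, limma adjusted p 0.0316) and was lost without any one of the other 5 arrays (limma adjusted p 0.0762 to 0.230), while the difference stayed between -1.02 and -0.98 there. It held with outlier spots kept, an intensity trend and array weights. It was lost with the percentile over all probes, the authors' log2 values and quantile normalization (limma adjusted p 0.0631, 0.0744 and 0.0748). The replicate block (limma adjusted p 0.162) and the methods' t-test (adjusted p 0.172) lost it too. With slide row as a block, where no probe on the array passed, the difference was -1.01 and the adjusted p 0.168, and normexp background correction brought it to -0.51. The other 3 Ciita probes, A_55_P2741198, A_55_P2035003 and A_55_P2736700, were well above background on no array.

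Cd209a, a lectin of the DC-SIGN family, was detected in NEXN-WT hearts only. Its probe A_55_P2018061 was at -5.88, -5.81 and -5.93 in NEXN-WT hearts, where it was well above background in every heart, and at -8.26, -8.75 and -8.57 in NEXN-S437E hearts, where it was well above background in none. The signal was thus measured in 1 group only, and the probe passed the filter through that group. Set against the lowest signals that counted as well above background on the NEXN-S437E arrays, Cd209a was at least 1.9-fold lower there (limma adjusted p of the fit 0.00203). The mean in NEXN-WT hearts was -5.87 (SD 0.06), and the readings in NEXN-S437E hearts averaged -8.52, which is not a measured level.

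Since the NEXN-S437E readings lay below background, other settings of the Cd209a fit change a reading and not a measured fold. The adjusted p was 0.00661 to 0.0363 in limma with 1 array left out. With slide row as a block (-2.38, limma adjusted p 0.0602) and within slide row 1 (limma adjusted p 0.176), where no probe on the array passed, it did not pass either. After normexp background correction with an offset of 50 the difference was -0.08 (limma adjusted p 0.769). The second Cd209a probe, A_55_P2743470, was well above background on no array, with recorded values of -7.52, -6.96 and -6.86 in NEXN-WT hearts and -7.73, -8.17 and -8.26 in NEXN-S437E hearts. Readings below background add nothing to the difference of the first probe. Of the related genes Cd209b to Cd209g, only a Cd209d probe, A_55_P2055985, was tested, and it differed by 0.16 (SE 0.26, limma adjusted p 0.771).

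Flt3 and Clec9a were near or below the limit of detection. Flt3 A_66_P116412 was well above background in NEXN-WT replicate 1 (-6.25) and NEXN-S437E replicate 2 (-6.84), and read -7.74 and -7.27 in the other NEXN-WT hearts and -8.33 and -7.74 in the other NEXN-S437E hearts. One heart of each group carried the signal and the groups overlapped. Clec9a was well above background on no array on either of its probes, and its highest readings, -7.37 and -7.39, were both in NEXN-WT replicate 1. The second Flt3 probe, A_66_P126155, was well above background on no array either. No difference in Flt3 or Clec9a was detectable at this signal.

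Of the 10 member probes well above background on all 6 arrays, 9 had groups without overlap and lower levels with NEXN-S437E, against 13.8% of the 21099 probes detected as widely (14.5% of all 22998 tested). The median difference of the 10 was -0.66, against -0.02. By limma's unadjusted p under 0.05, 9 of the 10 were lower, against 8.95% of those probes and 10.1% of all tested. Past the adjusted p of 0.05 there was 1, Ciita, against 0.0758%, and none of the 10 met the study's threshold of 2-fold and an unadjusted p of 0.05. Of all tested probes, 0.126% were lower past the adjusted p and 2.19% past the 2-fold threshold. The fit of Cd209a met both, but its bound of 1.9-fold lies below the 2-fold threshold. It also entered the test through the NEXN-WT group alone, so its calls are not counted against these shares. These probes are not independent, since several belong to 1 gene.

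**Figure D2:**
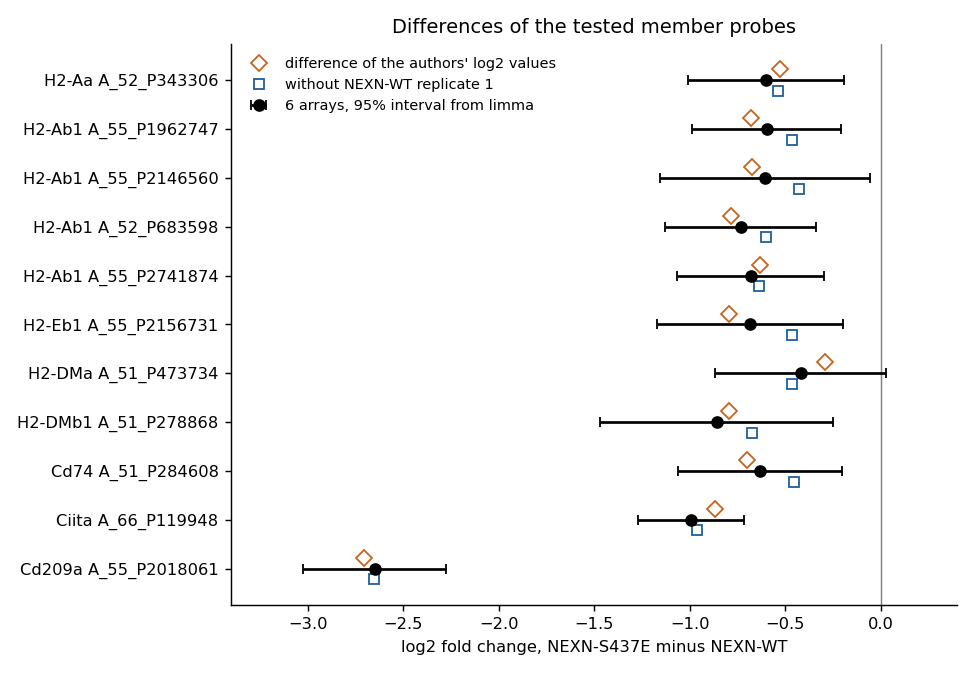
Difference of each tested member probe between the groups (NEXN-S437E minus NEXN-WT, log2, x axis) with its 95% limma interval, beside the difference of the authors' normalized log2 values and the fit without NEXN-WT replicate 1. All 11 differences were below 0 in each of the 3, and the interval of H2-DMa reached 0.03. In the fit to all arrays, 55.6% of all 13747 tested genes, each by 1 probe, were below 0 too. Several of the 11 probes belong to H2-Ab1, so they are not independent. Cd209a entered the test through the NEXN-WT group alone. Its NEXN-S437E signal was not well above background, so its position is not a measured fold.

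Without NEXN-WT replicate 1 the differences of the class II chains, Cd74 and H2-DMb1 were smaller and that of H2-DMa was larger, and the 9 probes of these genes differed by -0.43 to -0.68 (limma adjusted p 0.180 to 0.478). Within slide row 1, which holds 1 NEXN-S437E heart, no probe on the array passed the adjusted p. There the 9 probes differed by -0.37 (H2-DMa) to -1.24 (H2-DMb1), with larger differences than over all 6 arrays for H2-Aa, Cd74, H2-DMb1 and H2-Ab1 A_55_P2146560 and smaller ones for H2-DMa, H2-Eb1 and the other H2-Ab1 probes.

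Ratios between members on the same array do not depend on how arrays are scaled to each other. H2-Eb1 over Cd74 stayed within 0.175 on the log2 scale across all 6 hearts, H2-Ab1 (A_55_P1962747) over Cd74 within 0.235, and H2-Aa over H2-Ab1 within 0.363. H2-Aa over Cd74 varied more, over 0.54, which is near the size of the difference of H2-Aa itself, and the groups differed in it by 0.03 (exact permutation p 0.9). In the other 3 ratios the groups differed by -0.05, 0.04 and -0.001 (exact permutation p 0.5, 0.7 and 1, two-sided; adjusted over the 11 ratios 0.825, 0.856 and 1).

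Each ratio that involved Ciita, Cd209a or an H2-DM gene ranged over 0.682 or more across the 6 hearts. Ciita over Cd74 was -5.57, -5.11 and -5.16 in NEXN-WT hearts and -5.60, -5.79 and -5.53 in NEXN-S437E hearts, and the groups overlapped because NEXN-WT replicate 1 sat with the NEXN-S437E hearts (difference -0.36, exact permutation p 0.2). H2-DMb1 over H2-DMa ranged over 1.34 and differed by -0.44 (exact permutation p 0.4). Cd209a over Cd74 differed by -2.02 and Cd209a over Ciita by -1.66 without overlap, each at an exact permutation p of 0.1, the smallest that 3 against 3 arrays allow, and 0.55 after adjustment. As Cd209a was not well above background in NEXN-S437E hearts, these 2 ratios have no measured size there.

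**Figure D3:**
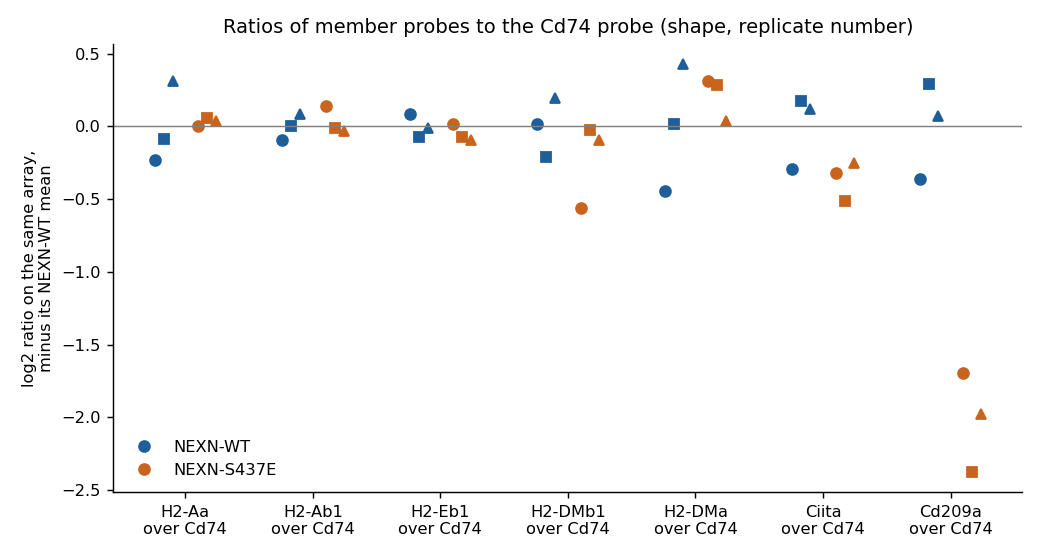
Log2 ratio of each member probe to the Cd74 probe of the same array, less its NEXN-WT mean (y axis), for NEXN-WT and NEXN-S437E hearts with replicates as shapes. H2-Ab1 and H2-Eb1 stayed close to 0 in both groups, H2-Aa was more spread in NEXN-WT hearts (SD 0.279), and Cd209a, which was not well above background in NEXN-S437E hearts, lay about as far below as its difference of -2.02.

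The remaining genes of the class II pathway were summarised by lists, with 1 probe per gene. Over all 13747 tested genes the median difference was -0.04, and 55.6% were lower by any amount. Of all tested genes, 2.63% were lower by the 2-fold threshold, 0.153% by the adjusted p and 11.8% by limma's unadjusted p under 0.05. Of 24 genes of class II presentation on the array (peptide-making proteases, costimulators and other class II chains), 17 were tested, with a median of -0.18. None passed the 2-fold threshold or the adjusted p in limma, and 3 had an unadjusted p under 0.05. These were Ifi30, a lysosomal reductase that opens antigens (-0.55), the costimulator Cd80 (-0.47) and Lag3, a class II binding receptor of T cells. Lag3 was one of 2 genes of the list tested through the NEXN-WT group alone, and it was detected in 2 NEXN-S437E hearts, so the fitted -0.71 is not fully measured. H2-Oa, H2-DMb2 and H2-Ea-ps were well above background on no array, H2-Ob on 1 NEXN-WT array and H2-Eb2 on 1 NEXN-S437E array.

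Of 22 regulators of class II transcription, 18 were tested, with a median of -0.25, and none passed either threshold. Those with a limma unadjusted p under 0.05 were the interferon-induced factor Irf1 (-0.35), which drives Ciita, Nlrc5 (-0.55), the class I counterpart of CIITA, and Prdm1, a repressor of Ciita in plasma cells. Prdm1 was one of 2 genes of the list tested through the NEXN-WT group alone, with 2 NEXN-S437E hearts detected, so the fitted -0.91 is not fully measured. Rfx5, a subunit of the X box complex, was well above background on no array. Ifng, the cytokine that induces Ciita, was well above background in 2 NEXN-WT hearts and in no NEXN-S437E heart and was not tested.

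Class I presentation, which serves CD8+ T cells, had a median of -0.27 over its 20 genes, all well above background on all 6 arrays. Tap1, a chain of the peptide transporter, was the one past the 2-fold threshold. Its probe A_66_P125929 was at -4.18, -4.30 and -4.64 in NEXN-WT hearts and at -5.83, -5.49 and -5.66 in NEXN-S437E hearts, without overlap, and differed by -1.29 (SE 0.17, limma adjusted p 0.0605), while its other probe, A_51_P100327, differed by -0.74 (SE 0.22, limma adjusted p 0.202). The class I heavy chains H2-K1 and H2-D1 differed by -0.29 and -0.38 (limma adjusted p 0.382 and 0.309).

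Of the 44 further dendritic cell genes, 28 were tested, 4 of them through the NEXN-WT group alone, and the median was -0.30. None passed the adjusted p in limma, 9 had an unadjusted p under 0.05 in the lower direction, and 4 passed the 2-fold threshold, all lower. Of these, Id2, a regulator that cross-presenting dendritic cells and innate lymphocytes need (-1.13, SE 0.23, limma adjusted p 0.141), and Cacnb3, a calcium channel subunit of mature dendritic cells (-1.01, SE 0.21, limma adjusted p 0.141), were well above background on all 6 arrays. Both were below 2-fold without NEXN-WT replicate 1, at -0.88 and -0.82. The other 2 passed the filter through the NEXN-WT group. Ccr7, the homing receptor of migrating dendritic cells and T cells, was at -4.79, -5.69 and -5.77 in NEXN-WT hearts and at -7.66, -6.78 and -7.71 in NEXN-S437E hearts, of which 1 was well above background (limma adjusted p of the fit 0.111). Itgax, which encodes CD11c, was well above background in all NEXN-WT hearts and in no NEXN-S437E heart and was at least 2.2-fold lower there (limma adjusted p of the fit 0.204). These 2 were the dendritic cell genes whose fits stayed past 2-fold without NEXN-WT replicate 1. Those fits rest on NEXN-S437E readings that were mostly below background, so they are not measured folds.

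Other genes of the list differed less or in the other direction. Irf8 and Wdfy4, which cross-presenting dendritic cells need, differed by -0.50 and -0.62 (limma adjusted p 0.215 and 0.210), while Batf3 differed by -0.04, Zbtb46 by -0.20, and the lectin genes Mgl2 and Clec10a by 0.17 and 0.35. Xcr1, the chemokine receptor of cross-presenting dendritic cells, was among 11 genes of the list that were well above background on no array. The summed linear signal of the list, relative to the 75th percentile, was 10.3 to 12.9 in NEXN-WT hearts and 9.40 to 10.5 in NEXN-S437E hearts, and the groups overlapped there but not when the authors' normalized values were summed. Klf4, Mgl2, Bst2 and Tcf4, which cells other than dendritic cells express too, gave 70.1% to 74.1% of this sum. Over the 4 lists, 5 genes passed the 2-fold threshold. Without NEXN-WT replicate 1 and on the same probes 4 did, namely Tap1, Ccr7, Itgax and Prdm1, of which only Tap1 was well above background on all 6 arrays. When the probe of highest mean was chosen anew, which for Tap1 was then A_51_P100327, 3 did.

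**Figure D4:**
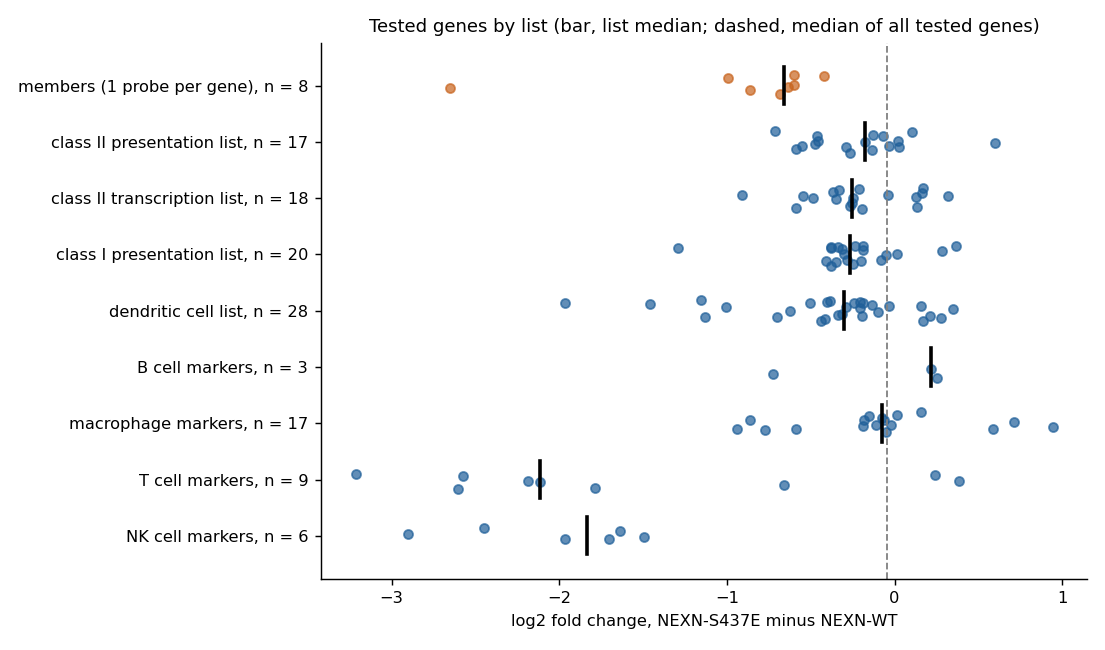
Difference of each tested gene (NEXN-S437E minus NEXN-WT, log2, x axis) by list, 1 point per gene, with list medians as black bars and the median of all tested genes (-0.04) as a dashed line. The 8 tested members lay to the left of that line. All 8 were lower with NEXN-S437E, as were 55.6% of all 13747 tested genes. The 17 macrophage genes were spread on both sides of the line, and most T cell and NK cell genes lay far to the left. The Cd209a point and those T and NK cell genes not well above background in NEXN-S437E hearts have no measured size.

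Markers of other cell types were compared in the same hearts. Those of B cells and macrophages, which also carry class II, gave summed signals that overlapped between the groups. All 10 fibroblast genes, detected in every heart, had lower mean levels with NEXN-S437E (median -0.94), 8 of them at a limma unadjusted p under 0.05 and 4 past the 2-fold threshold. The fall was not uniform. Without NEXN-WT replicate 1, the matrix genes Col1a1, Col1a2, Col3a1 and Postn differed by -1.51, -1.18, -1.15 and -2.20. The other fibroblast genes differed there by -0.15 (Dcn) to -0.73 (Pdgfra). Of 6 tested NK cell genes, the 2 detected on all 6 arrays were lower past the 2-fold threshold, against 2.63% of all tested genes. The other 4 were tested through NEXN-WT alone, so their fits past 2-fold are not fully measured. The part of these in the class II differences was not tested. Of 14 B cell markers, 3 were tested and 8, among them Ms4a1, Cd79a and Pax5, were well above background on no array. The summed B cell signal was 0.248 to 0.352 in NEXN-WT hearts and 0.314 to 0.328 in NEXN-S437E hearts, of which Blnk, an adaptor that myeloid cells express too, gave 60.3% to 71.1%. Cd79b, a chain of the B cell receptor, differed by -0.73 (limma adjusted p 0.179), and Blnk and Bank1 by 0.22 and 0.25. Of 8 plasma cell genes, 7 were tested, 3 of them through NEXN-WT and 1 through NEXN-S437E alone. Jchain, the joining chain of secreted antibody, was detected in all NEXN-WT hearts and in no NEXN-S437E heart and was at least 4.48-fold lower (limma adjusted p of the fit 0.00362), while Mzb1 and Xbp1 differed by 0.04 and 0.05. In the other direction, the fit of Tnfrsf17 passed the 2-fold threshold (1.19, limma adjusted p of the fit 0.236). Tnfrsf17 was tested through NEXN-S437E alone, with 1 NEXN-WT heart detected. Sdc1 differed by -0.88 (limma adjusted p 0.213) and Prdm1 by a fitted -0.91. The summed plasma cell signal was 3.63 to 3.67 against 3.69 to 3.77, nearly all of it from Xbp1, which many secretory cells express.

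Macrophages, the other large class II bearing population of the heart, had a median difference of -0.07 over 17 tested markers, with none past either threshold in limma, 3 lower and 3 higher at an unadjusted p under 0.05. The 4 with the smallest p were Lyve1 (0.71), Fcgr1 (-0.86), Cx3cr1 (-0.77) and Folr2 (0.59), of which Lyve1 and Folr2 mark resident macrophages. Cd68 and Csf1r differed by -0.02 and -0.05. The summed macrophage signal was 22.7 to 31.4 in NEXN-WT hearts, highest in replicate 1, and 25.3 to 26.6 in NEXN-S437E hearts.

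Of 9 tested T cell markers, 6 were detected on all arrays, and 2 of these passed the adjusted p. Lck, the kinase of the T cell receptor, fell by 2.18 (SE 0.20, limma adjusted p 0.00983) and Cd3d by 2.60 (SE 0.28, limma adjusted p 0.0254). The other 3 were tested through NEXN-WT alone. Of these, Cd3g was well above background in NEXN-WT hearts only and was at least 2.37-fold lower (limma adjusted p of the fit 0.00105). Cd8b1, detected in 2 NEXN-S437E hearts, read -4.66, -3.90 and -3.42 against -6.07, -6.34 and -7.30 (limma adjusted p of the fit 0.0883). Over the 6 markers detected on all arrays the median difference was -1.22, with 3 past the 2-fold threshold and 4 lower at an unadjusted p under 0.05. Cd28 was higher at an unadjusted p under 0.05 (0.38, limma adjusted p 0.224). Cd4, the co-receptor that binds class II, differed by 0.11 (SE 0.15, limma adjusted p 0.726). The summed T cell signal was 0.849 to 1.16 against 0.710 to 0.943, most of it from Cd247, which differed by 0.24 (limma adjusted p 0.542).

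The NK cell signal summed to 0.205 to 0.471 in NEXN-WT hearts and to 0.0731 to 0.0941 in NEXN-S437E hearts, without overlap. Of the 10 genes in this sum, 2 were well above background on all 6 arrays and 3 on none. The fibroblast signal was 58.9 to 104 against 39.7 to 43.0, highest in NEXN-WT replicate 1 and 58.9 to 61.8 in the other NEXN-WT hearts. Dcn gave 30.8% to 64.7% of it. The summed signal of the atrial cardiomyocyte list was 35.7 to 45.3 against 12.3 to 16.8. That sum was nearly all Nppa, a natriuretic peptide that stressed ventricles make too, and Nppa fell by 1.51 (SE 0.17, limma adjusted p 0.03). The other 3 tested genes of that list, Dkk3 (-3.46), Myl4 (-0.74) and Nr2f2 (-0.42), were also lower at a limma unadjusted p under 0.05 (adjusted p 0.0925, 0.225 and 0.264). Without NEXN-WT replicate 1, Nppa differed by -1.43 (limma adjusted p 0.0316) and Dkk3 by -2.77 (limma adjusted p 0.0165). In that fit 131 probes of the array passed the adjusted p, against 32 over all 6 arrays. Myl7 and Sln were detected in some hearts of both groups and Bmp10 in none, and they were not tested. Ventricular cardiomyocyte markers, each of the 11 detected in every heart, summed to 265 to 315 in NEXN-WT hearts and to 350 to 362 in NEXN-S437E hearts. This separation depended on the scaling, as the groups overlapped when the authors' normalized values were summed, and so did those of the plasma cell and adipocyte lists (adipocyte sums 17.7 to 19.6 against 22.2 to 25.0, nearly all Fabp4). The NK cell, fibroblast and atrial sums did not overlap under either scaling. Endothelial and neutrophil markers had medians of -0.08 and 0.02 over 10 and 4 tested genes, and their sums overlapped.

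The genes outside these lists whose levels followed the class II chains and Cd74 most closely over the 6 arrays were Igfbp4 (Pearson r 0.996), Ypel1 (0.994), Nek8 (0.992), Stx6 (0.992) and Cd109 (0.992). The arrays share the difference between the groups and the position of NEXN-WT replicate 1, and 204 of 13567 genes had an r above 0.95, so that a high r was not confined to these 5. The levels of Igfbp4 differed by -0.58 between the groups (limma adjusted p 0.211) and those of Cd109 by -1.11 (limma adjusted p 0.141).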

How the data were processed

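RNA of 6 hearts, 3 per group, was measured on 1-colour Agilent SurePrint arrays. Groups and replicate numbers came from the sample titles, and the design text gives 3 animals per group. The authors extracted the arrays with Agilent Feature Extraction 10.7.1.1 and deposited background-subtracted linear intensities that were not scaled between arrays. A table of log2 values, also deposited, has 6 columns of identical distribution. The software behind that normalization is not given in the sources used here. Probe names, symbols and mm9 positions are those of the deposited annotation. All 10 symbols matched RefSeq, and no genome of that build was used, so probes were not placed in exons or UTRs.

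From the processed intensity, control spots and outlier spots were left out, log2 was taken, spots of a probe were averaged and each array's 75th percentile over probes well above background on all 6 arrays was subtracted, since under 50% of the spots were detected. Probes detected in each of the 3 hearts of a group were tested with limma 3.58.1 (lmFit, eBayes) in R 4.3.3, without covariates, and p-values were adjusted by Benjamini-Hochberg over all 22998. The thresholds were an adjusted p of 0.05, and a 2-fold change with an unadjusted p of 0.05. A probe well above background on no array of a group was given as a bound, and one detected on some of its arrays as fitted values with their number. A gene of a list was its tested probe of highest mean. Ratios were tested with an exact two-sided permutation test in scipy 1.17.1. The fit was tested on simulated data. Figures were drawn with matplotlib 3.10.9.

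All members are named by every probe. From 4 lists (class II presentation, class II transcription, class I presentation, dendritic cells) the genes past a threshold are named, and from B cell, macrophage and T cell markers up to 4 by smallest p. Other genes were named after their values were seen. The members, lists and rules were chosen with earlier results of these data known. The number of arrays, not counting depth, limits the precision. The alternatives were the percentile over all probes, quantile normalization, the authors' log2 values, normexp background correction (offset 50), 2 other filters, outlier spots kept, the methods' t-test, an intensity trend, array weights, replicate and slide row blocks, a 1.5-fold threshold, any probe of a gene, and each array left out. The sums of marker lists over the authors' values were added after seeing the data.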

Additional observations from a re-analysis of the deposited data

How the results depend on the processing

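Of 208 values of tested member probes under 19 alternatives, 189 stayed on their side of the adjusted p of 0.05 with the same direction, 19 lost the call and none reversed. Most of the 189 belong to the 9 probes that did not pass in the main fit and so had no call to lose. Ciita lost its call in 15 of 19 alternatives and Cd209a in 4 of 18. The 2 member probes past the adjusted p became 1 with the percentile over all probes, quantile normalization, the authors' log2 values, no filter and the replicate block, and 0 with normexp, with detection on all 6 arrays (which drops Cd209a), with the methods' t-test, with slide row as a block and within slide row 1. Leaving out 1 array gave 1 to 2. The 1 member probe past 2-fold was Cd209a, whose fold is not measured because its NEXN-S437E readings lay below background. The count became 0 with normexp and with detection on all 6 arrays, 2 with no filter and 3 with the slide row block. Leaving out 1 array gave 1 to 3. At 1.5-fold it was 10, as several differences, such as -0.60 for H2-Aa, lay just past that cut. Over the array, in either direction, 614 of 22998 probes passed 2-fold, and 829 did with the slide row block. With no filter 1845 of 56605 did, and 1927 of 22998 passed 1.5-fold. The 5 genes of the 4 lists past 2-fold became 0 with normexp, 8 with no filter, 3 with detection on all 6 arrays and 9 at 1.5-fold, with 3 to 6 on leaving out 1 array (4 in place of 3 without NEXN-WT replicate 1 on the probes of the full fit). No gene of these lists passed the adjusted p in limma or the methods' t-test, and 1 did with the percentile over all probes and 4 with array weights, with 0 to 0 on leaving out 1 array. Beyond dropped probes and changed thresholds, the cause was not tested.

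Replicate numbers did not pair the samples: deviations of same-numbered arrays correlated at -0.15, -0.03 and -0.18. With the number as a block 12 probes of the array passed the adjusted p, against 32 without it. The counts over the array ranged from 0 (the methods' t-test, slide row block, within slide row 1) to 493 (array weights). The methods' t-test gave 428 probes past 2-fold and its unadjusted p. The median difference of all probes was -0.03, and 0.08 with the percentile over all probes.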
